A study of Rattus norvegicus with 18 samples.

Results

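Skeletal muscle genes were examined in CD11b+ cells of the rat knee synovium, the tissue that lines the joint. The genes were 35 named parts of the sarcomere and of the calcium and energy supply of muscle fibres, found by symbol in the deposited tables. Of these, 29 matched a row in both tables, which hold 30643 rows each, and Myh1, Myh2, Ttn, Atp2a1, Tcap and Myot were not analysed here. The genes were chosen by function, with the 12-week normalized reads of OA and sham libraries in view, so the 12-week values are given as a description.

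Libraries came from male, wild type Sprague Dawley rats that were 12 weeks old at surgery. OA animals had a knee arthrotomy with transection of the anterior cruciate ligament and of the medial meniscotibial ligament, and sham animals had the arthrotomy alone. Synovium was digested and cells were taken with magnetic beads against CD11b/c, integrins of macrophages and other myeloid cells. There were 5 OA and 5 sham libraries at 4-weeks, each a pool of 4 rats, and 4 OA and 4 sham libraries at 12-weeks, each a pool of 3 rats.

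In a muscle fibre, myosin motors of the thick filament pull on actin of the thin filament. Calcium released from the sarcoplasmic reticulum binds troponin, which moves tropomyosin off the myosin sites on actin. Slow and fast fibres build the same machine from different isoforms, so the genes can be sorted into slow, fast and shared members. Some of them also have other sources: Des and Tpm2 are made by smooth muscle, and Myh7, Myl2, Myl3, Tnnc1, Actn2 and Casq2 by heart muscle. Synovial macrophages are known for clearing debris and for signals of inflammation, and sarcomeres are not among their structures.

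Recovered reads per library ranged from 4662344 to 18080503. The macrophage markers were well covered, and Csf1r, the receptor that macrophages need to survive, had 20785 to 28192 normalized reads at 4-weeks and 25265 to 36140 at 12-weeks. A level of 3 reads, the floor of what a library could show, was 2.06 to 6.96 normalized reads at 4-weeks and 2.27 to 3.82 at 12-weeks. The highest of these floors was that of sham replicate 3 of 4-weeks, the shallowest library. Genes were reported where the mean over a table was at least 10 normalized reads, which was the case for 24 of the 29 genes at 4-weeks and 27 at 12-weeks. At 4-weeks Myl3 (table mean 9.87), Tnni1 (9.31), Trim63 (8.34), Myl2 (5.09) and Myoz1 (4.82) lay under that mean, and Tnnc2 (13.5) was the lowest gene above it. Trim63 (9.59) and Myoz1 (7.94) lay under it at 12-weeks, and Myl2 (20.2) was the lowest above. In these bulk libraries, fewer cells of a type and less RNA per cell cannot be told apart.

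Promoter sequence is shown for 4 of the genes, since the measured genes did not all follow each other across libraries. Acta1, the actin of skeletal muscle, and Mb, the oxygen store myoglobin, moved with the mean of the muscle genes in both tables. Des, the intermediate filament desmin, and Mybpc1, the slow myosin binding protein C, did not at 12-weeks. The sequences are the 250 bases before the annotated start in RefSeq (GRCr8, a later build than the authors' Rnor_6.0), written 5′ to 3′. Capitals mark 3 motifs. CAGCTG is an E-box, the kind of site that factors of the MyoD family bind. CATTCCT is the muscle element bound by TEAD factors. TATAAA is the TATA box, where the transcription machinery assembles.
Acta1, chr19:68784195-68784444, minus strand: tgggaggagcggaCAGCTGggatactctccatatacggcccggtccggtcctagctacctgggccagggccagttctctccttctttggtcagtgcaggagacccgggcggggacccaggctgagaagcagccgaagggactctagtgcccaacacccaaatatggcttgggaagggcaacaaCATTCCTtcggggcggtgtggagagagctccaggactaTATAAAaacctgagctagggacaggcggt
Mb, chr7:110647743-110647992, minus strand: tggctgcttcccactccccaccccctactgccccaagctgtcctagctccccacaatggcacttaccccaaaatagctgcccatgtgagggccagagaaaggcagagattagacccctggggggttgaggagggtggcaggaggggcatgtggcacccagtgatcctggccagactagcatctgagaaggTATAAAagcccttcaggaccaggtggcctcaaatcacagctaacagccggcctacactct
Des, chr9:84299376-84299625, plus strand: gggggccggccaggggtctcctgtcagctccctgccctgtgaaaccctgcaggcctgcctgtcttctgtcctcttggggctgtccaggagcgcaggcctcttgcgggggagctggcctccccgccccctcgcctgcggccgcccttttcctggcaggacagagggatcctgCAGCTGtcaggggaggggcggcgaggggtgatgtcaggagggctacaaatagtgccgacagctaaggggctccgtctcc
Mybpc1, chr7:24903374-24903623, minus strand: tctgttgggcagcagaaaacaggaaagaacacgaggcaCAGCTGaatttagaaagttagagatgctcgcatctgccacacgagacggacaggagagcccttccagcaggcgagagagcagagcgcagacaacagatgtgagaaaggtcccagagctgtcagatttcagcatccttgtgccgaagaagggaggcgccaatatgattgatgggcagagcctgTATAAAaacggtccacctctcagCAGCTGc
The Acta1 sequence held all 3 motifs, at 237 bases (CAGCTG), 67 bases (CATTCCT) and 29 bases (TATAAA) before the start. Mb held TATAAA at 60 bases, Des held CAGCTG at 79 bases, and Mybpc1 held CAGCTG at 212 and 7 bases with TATAAA at 30 bases. Of the 29 measured genes, 25 had a promoter entry, and the first was used for Myl1, which had more than 1. Searched on both strands, CAGCTG stood in 9 of the 25 (36.0%) against 12.0% of 33469 RefSeq promoters of the same length. CATTCCT stood in 4 (16.0%) against 4.35%, and TATAAA in 9 (36.0%) against 12.9%. The motifs do not share letters with each other, and a match is a description of the sequence only.

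At 4-weeks the muscle genes did not pass the test between OA and sham. None of the 24 reported genes was called by limma at an adjusted p under 0.05 and a log2 fold change of at least 0.5, and neither was any of the 14861 genes tested (0.0%). edgeR also called 0 of the 24 and 0.0% of all genes. At an unadjusted p under 0.05, limma passed 2 muscle genes, Cacna1s and Mybpc1, beside 7.92% of all genes, and edgeR passed 3 beside 8.09%. DESeq2 called 1 muscle gene, Mybpc1, beside 0.209% of all genes, and the same gene without sham replicate 3, beside 0.242%. With all libraries DESeq2 gave no adjusted p to Actn2, Actn3, Cacna1s, Mb, Mybpc2, Myh7, Myl1, Tnnc1, Tnnc2 and Tnni2. These genes could therefore not be called by DESeq2, and its shares are over all genes, those without an adjusted p included. The log2 fold change (OA minus sham, on log2 of normalized reads plus 1) was above 0 for 6 of the 24, against 57.1% of all genes, with a median of -0.17, and the median of all genes was 0.03. It was at or past 0.5 with OA lower for 5 of the 24, against 6.03% of all genes, and with OA higher for 0, against 1.35%. The adjusted p from limma ranged from 0.392 to 0.984 over the 24 genes.

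That direction rested on sham replicate 3. It was the highest of the 10 libraries for 20 of the 24 reported genes, while it was the highest for 27.4% and the lowest for 36.6% of all genes. Its level was 2.03 times the mean of the other 9 libraries for the median muscle gene (range 0.85 to 4.99) and 0.94 times for the median of all genes. The 29 muscle genes summed to 5837 normalized reads in it, and to 2640 to 3485 in the other 9. Without this library 13 of the 24 log2 fold changes were above 0, against 51.0% of all genes, and 11 below, with a median of 0.04, the median of all genes was 0.004, and the adjusted p ranged from 0.285 to 0.990.

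Other RNAs stood apart in the same library. The small nuclear RNA 7SK, which holds back transcription elongation, summed to 15697 normalized reads in sham replicate 3 and to at most 7231 in the other 4-week libraries. RNaseP_nuc, the RNA of the enzyme that trims tRNA, had 847 normalized reads there against at most 396, and Metazoa_SRP, the RNA of the signal recognition particle, had 2623 against at most 1485. The 7 heart muscle genes summed to 241 against at most 71.5, the muscle progenitor and embryonic myosin genes to 276 against at most 79.5, the smooth muscle genes to 15922 against at most 12858, and the fat cell genes to 12466 against at most 8685. Itgam, which encodes CD11b, had 2270 normalized reads and Cd68, a lysosomal protein of macrophages, 1511, the lowest of the sham libraries for both. The 12 macrophage genes together did not stand apart, with a sum of 150081 against 145573 to 151285 over all sham libraries. Csf1r had 20805 normalized reads in sham replicate 3, against 20785 to 24072 over all sham libraries. The part of these RNAs and cells in the muscle values was not tested.

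**Figure D1:**
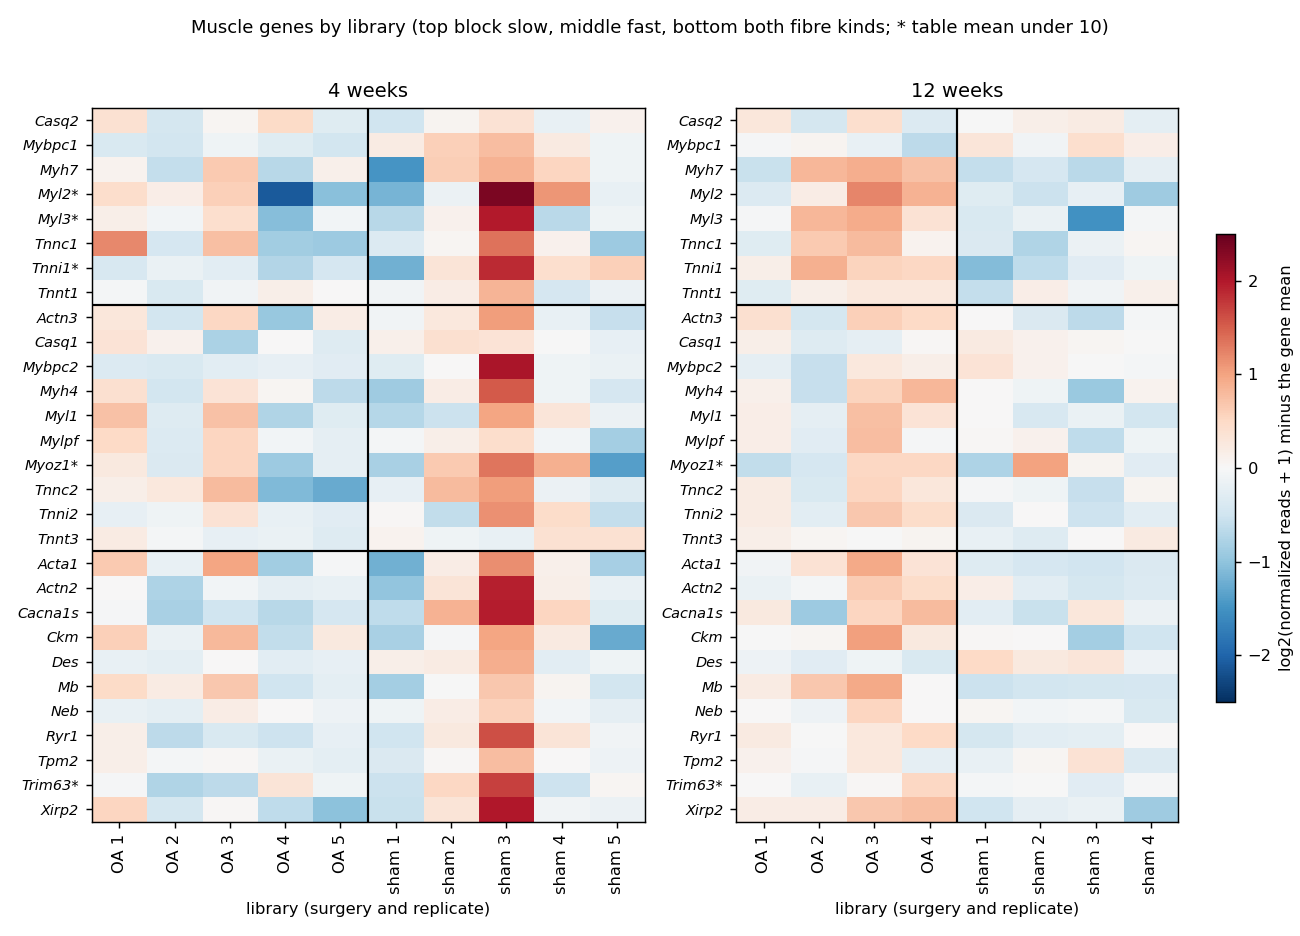
Level of the 29 measured muscle genes in each library, as log2(normalized reads + 1) minus the mean of the gene over the libraries of its time point, with OA libraries left and sham libraries right of the vertical line in each panel and slow, fast and shared genes in blocks from top to bottom. Sham replicate 3 stands out at 4-weeks, where it was highest for 20 of the 24 reported genes, and at 12-weeks OA replicate 3 was highest for 15 of 27.

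Mybpc1 was the muscle gene whose 4-week groups did not overlap. It encodes the slow form of myosin binding protein C, which ties the thick filament together, and had the highest mean of the slow genes. Mybpc1 (ENSRNOG00000056493) had 107, 102, 130, 113 and 102 normalized reads in OA replicates 1 to 5 and 162, 212, 239, 164 and 131 in sham replicates 1 to 5. All OA libraries were below all sham libraries, the closest being OA replicate 3 and sham replicate 5. The log2 fold change was -0.68 (SE 0.15, n = 5 and 5, adjusted p = 0.392 by limma) and -0.57 without sham replicate 3. DESeq2 called it with both sets of libraries, while limma and edgeR did not. Groups were separate with OA lower for 1 of the 24 genes, against 0.693% of all genes, and with OA higher for 0 of the 24, against 1.18%.

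The calcium channel Cacna1s, the voltage sensor of the fibre membrane, had the lowest log2 fold change. Cacna1s had 20.1, 11.4, 14.4, 12.5 and 15.2 normalized reads in the OA libraries and 12.9, 38.8, 83.6, 30.5 and 16.6 in the sham libraries. The groups overlapped, since sham replicate 1 was as low as the OA libraries, and sham replicate 3 stood well above every other library. Its log2 fold change was -0.97 (SE 0.42, adjusted p = 0.614) and -0.61 without that library. Ryr1, the release channel that Cacna1s opens, had 44.8 to 79.0 normalized reads in OA and 49.7 to 220 in sham libraries, with a log2 fold change of -0.64 (adjusted p = 0.646).

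The 2 genes with the highest log2 fold change at 4-weeks serve the energy supply of the fibre. Ckm, the creatine kinase that refills ATP, had 45.8, 26.7, 52.9, 19.1 and 35.8 normalized reads in OA and 16.6, 29.1, 60.3, 35.2 and 12.0 in sham libraries, with a log2 fold change of 0.35 (SE 0.40, adjusted p = 0.817). Mb had 22.2, 18.1, 25.4, 10.8 and 13.0 in OA and 8.29, 15.5, 25.5, 16.4 and 11.0 in sham libraries, with a log2 fold change of 0.24 (SE 0.33, adjusted p = 0.853). Both sets of values overlapped over nearly their whole range, and sham replicate 3 was the highest library for each.

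Myh7 and Tnni1, the slow myosin heavy chain and the slow inhibitory troponin that holds back contraction, had few reads at 4-weeks. Myh7 (ENSRNOG00000016983) had 26.3, 16.2, 39.8, 14.95 and 27.1 normalized reads in OA and 8.29, 38.8, 46.4, 36.3 and 23.0 in sham libraries, and its log2 fold change was -0.17 (SE 0.42, adjusted p = 0.915) and 0.02 without sham replicate 3. Tnni1 (ENSRNOG00000009073) had 5.55, 6.67, 6.18, 4.15 and 5.42 in OA and 2.76, 9.69, 30.2, 10.5 and 12.0 in sham libraries, under the mean for testing. For Tnni1 4 of the 5 sham libraries lay above all OA libraries, and sham replicate 1 lay below them, at the 3-read floor of that library.

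The partner troponins overlapped between groups at 4-weeks. Tnnc1, the calcium-binding troponin of slow fibres, had 31.2, 9.53, 22.7, 6.65 and 6.51 normalized reads in OA and 10.1, 13.6, 34.8, 14.1 and 6.44 in sham libraries (adjusted p = 0.962). Its fast counterpart Tnnc2 had 13.2, 14.3, 21.3, 4.98 and 4.34 in OA and 10.1, 21.3, 25.5, 10.5 and 9.21 in sham libraries (adjusted p = 0.790). Tnni2, the fast inhibitory troponin, had 19.4, 21.0, 29.5, 19.9 and 18.4 in OA and 23.0, 14.5, 51.1, 31.6 and 14.7 in sham libraries (adjusted p = 0.892). In each of the 3 genes sham replicate 3 was the highest library. The lowest values came from both groups for Tnnc1, from OA libraries for Tnnc2 and from sham libraries for Tnni2. Tnnt3, the fast troponin that anchors the complex to tropomyosin, had the highest mean of the fast genes, with 157, 132, 118, 122 and 110 in OA and 145, 127, 121, 179 and 180 in sham libraries (log2 fold change -0.22, adjusted p = 0.691). It differed from its partners in that sham replicates 4 and 5 were highest and sham replicate 3 was among the lower libraries.

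Desmin, which links neighbouring myofibrils, had the highest mean of the shared genes at 4-weeks. Des (ENSRNOG00000019810) had 886, 845, 1010, 842 and 871 normalized reads in OA and 1107, 1165, 1892, 837 and 933 in sham libraries, with a log2 fold change of -0.36 (SE 0.18, adjusted p = 0.646). Without sham replicate 3 the log2 fold change was -0.17. The OA libraries were close together, and sham replicate 4 was the lowest library of all. By fibre kind, the median log2 fold change was -0.15 over the 5 slow, -0.18 over the 9 fast and -0.25 over the 10 shared genes, and 0.05, 0.06 and -0.04 without sham replicate 3.

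**Figure D2:**
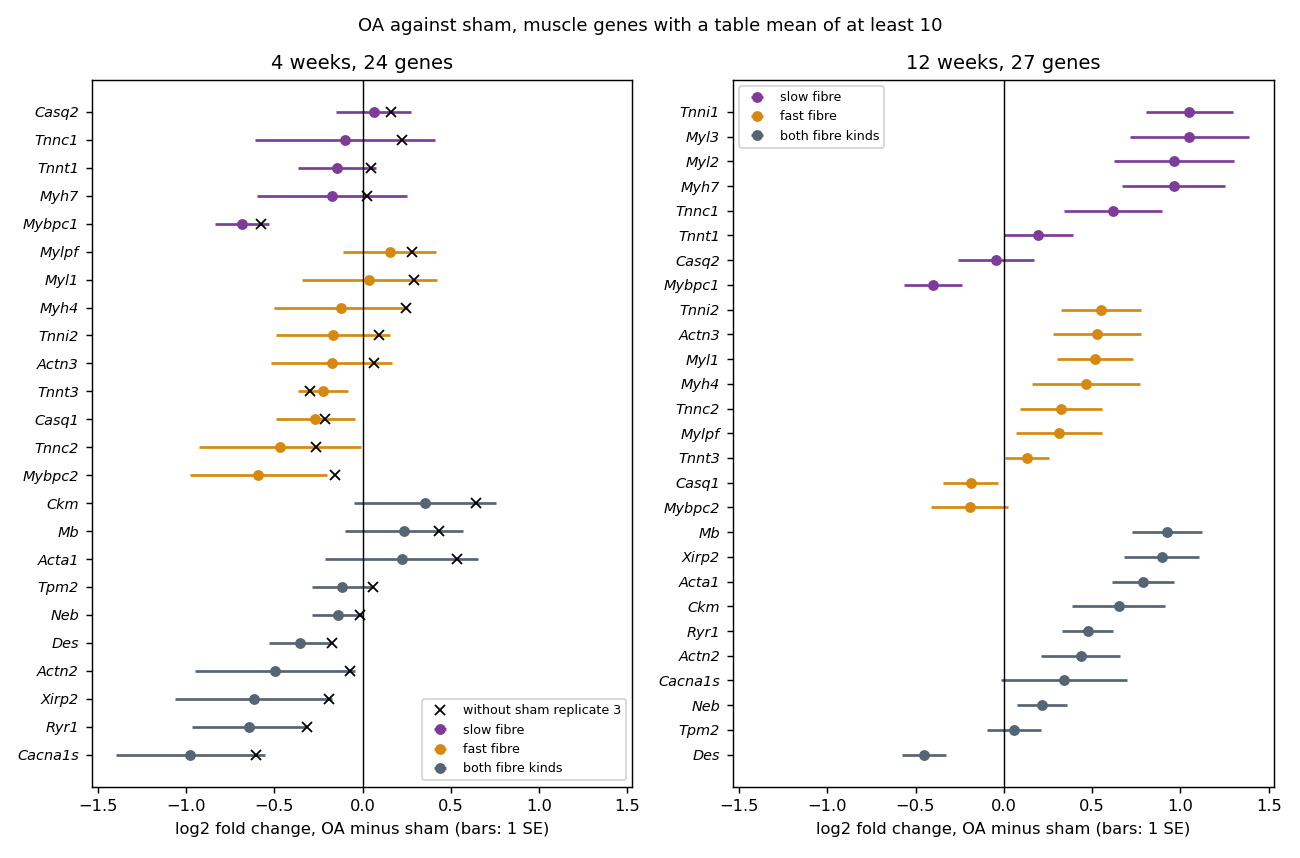
Log2 fold change of OA against sham for the muscle genes with a table mean of at least 10 (points, with bars of 1 SE; colours mark slow, fast and shared genes; crosses are the values without sham replicate 3 at 4-weeks). At 4-weeks 18 of 24 points lie below 0 and 11 of 24 crosses do, and at 12-weeks 22 of 27 points lie above 0.

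At 12-weeks most muscle genes were higher in OA than in sham libraries, by a median log2 fold change of 0.47 over 27 reported genes, while the median of all genes was -0.01. The genes were chosen with this comparison known, so nothing is read from their counts here. limma called 0 of the 27 and 0 of 14666 genes (0.0%), and edgeR called 0 of the 27 (0.0% of all genes). Unadjusted p under 0.05 was reached by 14 muscle genes in limma, 12 of them with OA higher, against 12.4% of all genes, 5.75% with OA higher and 6.62% with OA lower. In edgeR it was reached by 15, against 12.5%. DESeq2 called 5, all higher in OA (Acta1, Xirp2, Mb, Myh7 and Tnni1), against 0.682% of all genes and 0.566% with OA higher, and 5 without sham replicate 3, against 1.69%. Log2 fold changes of at least 0.5 were found with OA higher in 12 of the 27, against 4.48%, and with OA lower in 0, against 1.79%. The log2 fold change was above 0 for 22 genes, against 47.5% of all genes, and below 0 for Des, Mybpc1, Mybpc2, Casq1 and Casq2, the last of which was at 0.0073 in edgeR and 0.0042 in DESeq2.

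The myosin chains of the slow thick filament were higher in OA at 12-weeks. Myh7 had 95.1, 251, 266 and 234 normalized reads in OA replicates 1 to 4 and 92.2, 105, 87.8 and 120 in sham replicates 1 to 4, a log2 fold change of 0.96 (SE 0.29, n = 4 and 4). OA replicate 1 lay among the sham libraries, and the other 3 OA libraries lay well above them. Myl3, the essential light chain of slow myosin, had 34.0, 62.3, 66.5 and 45.0 in OA and 26.4, 30.9, 11.4 and 33.3 in sham libraries, with a log2 fold change of 1.05 (SE 0.34). The groups did not overlap but met closely, between OA replicate 1 and sham replicate 4. Myl2, the regulatory light chain beside it, had 14.0 to 42.9 in OA and 9.19 to 15.3 in sham libraries, with a log2 fold change of 0.97 (SE 0.34).

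Of the thin filament genes, a pair had separate groups at 12-weeks. Tnni1 had 33.2, 56.2, 44.0 and 42.9 normalized reads in OA and 13.6, 18.9, 24.2 and 27.6 in sham libraries, a log2 fold change of 1.05 (SE 0.25), and every OA library lay above every sham library. Acta1 (ENSRNOG00000017786) had 463, 637, 951 and 627 in OA and 394, 370, 352 and 384 in sham libraries, a log2 fold change of 0.79 (SE 0.17). Its sham libraries were close together and all below the lowest OA library, replicate 1. Tnnc1 had 25.3, 50.04, 54.7 and 33.2 in OA and 24.2, 18.05, 28.0 and 32.2 in sham libraries (log2 fold change 0.62, SE 0.28), with OA replicate 1 inside the sham range. Tnnt1, the slow troponin that anchors to tropomyosin, had 69.8 to 104 in OA and 56.7 to 96.3 in sham libraries (log2 fold change 0.20, SE 0.20).

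The fast troponins overlapped between groups at 12-weeks. Tnni2 had 38.4, 27.6, 53.6 and 46.1 normalized reads in OA and 25.7, 33.5, 22.9 and 27.6 in sham libraries (log2 fold change 0.55, SE 0.23). Tnnc2 had 35.8, 23.5, 45.0 and 37.5 in OA and 30.2, 28.4, 20.4 and 32.2 in sham libraries (log2 fold change 0.32, SE 0.23). In both genes OA replicate 2 lay within the sham range and the other 3 OA libraries lay above it. Tnnt3 had 199, 185, 177 and 189 in OA and 156, 144, 181 and 210 in sham libraries (log2 fold change 0.13, SE 0.12), and sham replicate 4 was its highest library. Tpm2, the tropomyosin that the complex moves, had a log2 fold change of 0.06 (SE 0.15), and Neb, the ruler of the thin filament, of 0.22 (SE 0.14).

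Of the fast myosin genes, Myh4, the heavy chain of the fastest fibres, had 99.1 to 263 normalized reads in OA and 77.6 to 156 in sham libraries, with a log2 fold change of 0.47 (SE 0.31). Myl1 had a log2 fold change of 0.52 (SE 0.21) and Mylpf of 0.31 (SE 0.24); they are the light chains of fast myosin. Reads of Myh4 are uncertain between near-identical heavy chain genes, since the treatment of reads that fit several genes is not given in the sources used here. The same holds for Myh7 with the cardiac chain Myh6, and for Acta1 with the other actins.

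**Figure D3:**
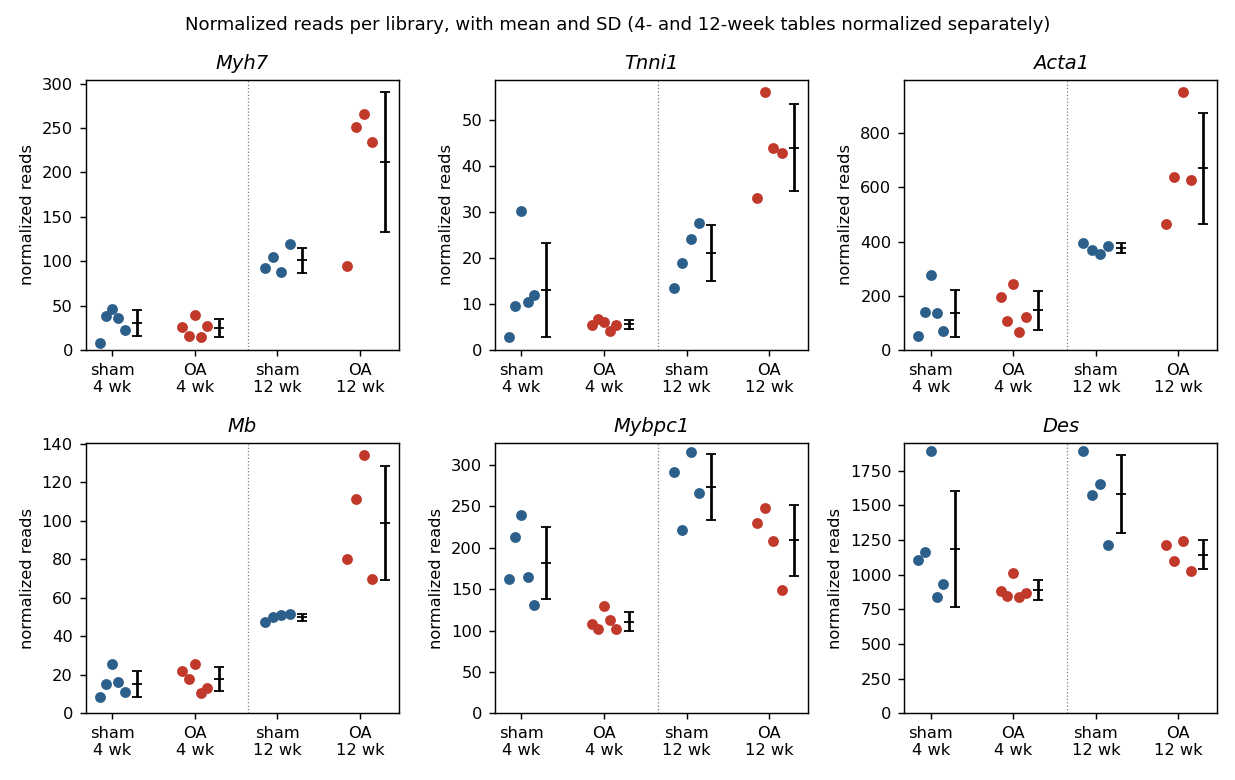
Normalized reads of Myh7, Tnni1, Acta1, Mb, Mybpc1 and Des in each library (points, blue for sham and red for OA), with the mean and SD of each group beside them and the time points split by a dotted line, since the 2 tables were normalized separately. At 12-weeks all OA points of Tnni1, Acta1 and Mb lie above all sham points, and at 4-weeks all OA points of Mybpc1 lie below all sham points.

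The genes of the Z-disc, which joins neighbouring sarcomeres, and those of the energy supply were mostly higher in OA libraries at 12-weeks. Xirp2, an actin-binding protein at fibre ends and damaged sites, had 54.1, 54.1, 76.1 and 80.4 normalized reads in OA and 33.2, 40.4, 42.0 and 25.3 in sham libraries, a log2 fold change of 0.89 (SE 0.21). Mb (ENSRNOG00000004583) had 80.3, 111, 134 and 69.7 in OA and 47.6, 49.8, 50.9 and 51.7 in sham libraries, a log2 fold change of 0.92 (SE 0.20). Groups did not overlap in either gene, and the sham libraries of Mb were close together. Per-library values of Acta1 and Xirp2 were added after their values were seen, since their groups did not overlap. Groups with OA higher were separate for 5 of the 27 genes (Acta1, Xirp2, Mb, Myl3 and Tnni1), against 2.85% of all genes, and with OA lower for 0 of the 27, against 3.44%.

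Ckm had a log2 fold change of 0.65 (SE 0.26), with 93.4 to 193 normalized reads in OA and 52.1 to 96.0 in sham libraries, so the ranges overlapped slightly. The alpha-actinins that crosslink actin at the Z-disc had log2 fold changes of 0.53 (SE 0.25) for the fast form Actn3 and 0.44 (SE 0.23) for Actn2. Trim63, which tags muscle proteins for breakdown, and Myoz1, a fast-fibre Z-disc protein, stayed under the mean, with 7.63 to 13.9 and 3.78 to 15.5 normalized reads over the 8 libraries.

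The calcium genes were divided. Ryr1 had 92.9 to 133 normalized reads in OA and 68.8 to 95.4 in sham libraries, a log2 fold change of 0.47 (SE 0.15), and Cacna1s had a log2 fold change of 0.34 (SE 0.36). Casq1 and Casq2, the proteins that store calcium inside the reticulum of fast fibres and of slow and heart muscle, had log2 fold changes of -0.19 (SE 0.16) and -0.05 (SE 0.22).

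Desmin and slow myosin binding protein C stood on the other side at 12-weeks. Des had 1216, 1098, 1243 and 1026 normalized reads in OA and 1894, 1575, 1653 and 1217 in sham libraries, a log2 fold change of -0.45 (SE 0.12). Mybpc1 had 230, 248, 208 and 149 in OA and 291, 222, 315 and 265 in sham libraries, a log2 fold change of -0.40 (SE 0.17). Each overlapped through a single low sham library, replicate 4 for Des and replicate 2 for Mybpc1. The fast form Mybpc2 had a log2 fold change of -0.19 (SE 0.22). Both Des and Mybpc1 were also lower in OA at 4-weeks, in other animals, where neither was called by limma. Without sham replicate 3 the 4-week log2 fold change was -0.17 for Des and -0.57 for Mybpc1.

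By fibre kind, the median 12-week log2 fold change was 0.79 over the 8 slow genes, of which 6 were above 0, 0.32 over the 9 fast genes (7 above 0) and 0.46 over the 10 shared genes (9 above 0). Without sham replicate 3 of 12-weeks these medians were 0.69, 0.19 and 0.47. OA replicate 3 was the highest library for 15 of the 27 genes, against 8.4% of all genes, and sham replicate 3 was the lowest for 10, against 21.9%. Leaving out each library in turn gave a median over the 27 genes of 0.35 to 0.56.

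**Figure D4:**
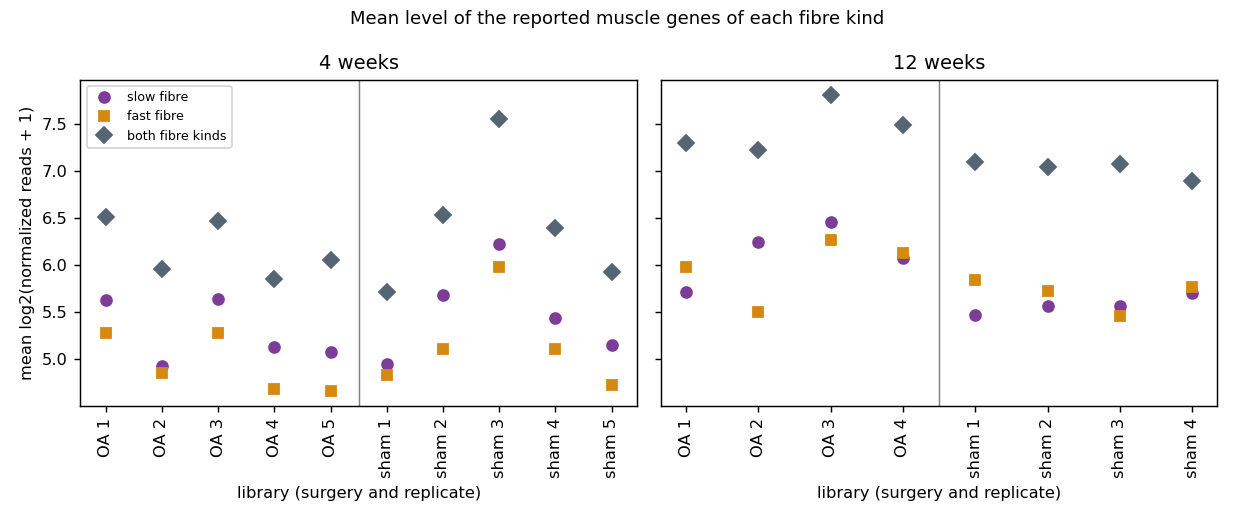
Mean log2(normalized reads + 1) of the reported slow, fast and shared muscle genes in each library, with OA and sham libraries split by a line (5 slow, 9 fast and 10 shared genes at 4-weeks and 8, 9 and 10 at 12-weeks, so the panels are not to be compared with each other). Sham replicate 3 is highest for all 3 kinds at 4-weeks, and OA replicate 3 is highest for all 3 at 12-weeks.

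Other cell types moved beside these values at 12-weeks. The 9 measured fibroblast genes summed to 91828 to 120707 normalized reads in OA and 67969 to 101422 in sham libraries. The highest sham value was that of sham replicate 3, and the other sham libraries had at most 72889. Their median log2 fold change was 0.50, with 6 values above 0 and 3 below (Thy1 -0.49, Pdgfrb -0.27 and Fbn1 -0.04). An unadjusted p under 0.05 in limma was reached by 7 of the 9, including Thy1, against 12.4% of all genes. The 9 smooth muscle genes summed to 8157 to 11682 in OA and 9465 to 14945 in sham libraries, with a median log2 fold change of -0.09. Sham replicate 3 was again the highest, and the other sham libraries had at most 11395. That library also had the highest endothelial sum (42168, against at most 30860 in the other sham libraries) and fat cell sum (10268, against at most 8158). Its macrophage sum, 158840, was the lowest of the sham libraries, which reached up to 225136. Macrophage genes had a median of 0.14 over 12 genes, endothelial genes of -0.26 over 5, nerve and Schwann cell genes of 0.29 over 5, and fat cell genes of -0.15 over 2. Without sham replicate 3 of 12-weeks the medians were 0.64 for fibroblast, 0.04 for smooth muscle, 0.03 for macrophage, -0.16 for endothelial, 0.43 for nerve and Schwann cell and -0.01 for fat cell genes. None of these lists held a gene called by limma or DESeq2. The part of these cells in the muscle values was not tested.

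At 4-weeks the same lists gave medians of 0.36 for fibroblast genes (9 tested), 0.12 for macrophage genes (12), -0.13 for endothelial genes (5), -0.01 for nerve and Schwann cell genes (6), -0.57 for fat cell genes (4) and -0.16 for smooth muscle genes (9). Without sham replicate 3 the fat cell median was -0.24, the smooth muscle median -0.02 and the nerve and Schwann cell median 0.13. limma and DESeq2 called none of their genes.

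Genes of heart muscle and of muscle stem cells were near the floor. Of the 7 heart genes 2 reached the mean for testing at 4-weeks and 1 at 12-weeks, with median log2 fold changes of -0.85 (-0.46 without sham replicate 3) and -0.19, and Nppa, Nppb, Tnni3, Myl4 and Myl7, markers of heart muscle cells, did not reach it in either table. The heart genes summed to 55.8 to 82.9 normalized reads in OA and 68.8 to 91.1 in sham libraries of 12-weeks. Of the 13 measured genes of muscle progenitors and embryonic myosins, 3 were tested at 4-weeks (median -0.89, and -0.61 without sham replicate 3) and 1 at 12-weeks (-0.68). Some tested genes reached the mean at 4-weeks only through the sham libraries. They were the heart gene Myh6 (mean 5.71 in OA and 22.2 in sham libraries), Myh3 (6.12 and 14.1) and Tnnt2 (5.24 and 14.9). The values without sham replicate 3 kept the same genes. Pax7, the marker of satellite cells, and Myod1 and Myog, which switch on muscle genes, were under the mean in both tables, and Mymx, a fusion protein of myoblasts, was at 0 in all 8 libraries of 12-weeks. None of these genes was called by limma or DESeq2. At 4-weeks DESeq2 gave no adjusted p to Myh6, Myh3, Tnnt2 and Chrna1, a gene of the progenitor list, so it could not call them.

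A wider list of 43 other skeletal muscle genes, of which 41 had a row, held structural, signalling and metabolic genes of the fibre. At 4-weeks 26 were tested, 8 higher and 18 lower in OA, with a median log2 fold change of -0.36 and 0 called by limma or DESeq2. The largest were Mybph, a myosin binding protein, at -1.42 (SE 0.53, adjusted p = 0.576) and Hspb7, a small heat shock protein of muscle, at -0.97 (SE 0.29, adjusted p = 0.491). Mybph had a mean of 4.93 normalized reads in OA and 16.5 in sham libraries, so it reached the mean for testing only through the sham libraries. DESeq2 gave no adjusted p to Mybph and some others of the 26, so these could not be called by DESeq2. Without sham replicate 3 the median over the same 26 genes was -0.13. At 12-weeks 29 were tested, 18 higher and 11 lower, with a median of 0.08. The largest were Klhl40, which keeps nebulin stable, at 0.88 (SE 0.24) with 13.1 to 20.4 normalized reads in OA and 6.90 to 10.2 in sham libraries, and Myom2, the M-band protein of fast fibres, at 0.79 (SE 0.23) with 18.4 to 27.9 and 9.19 to 14.4. Klhl40 reached the mean for testing only through the OA libraries, since its sham mean was 8.28, and DESeq2 gave it no adjusted p. limma called 0 of the 29 and DESeq2 called 1, Klhl41, a partner of nebulin, with 238 to 331 in OA and 162 to 196 in sham libraries.

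The change of the OA and sham difference between time points was fitted in a single model on log2 CPM. It holds the 12-week comparison, so it is a description for these genes. The difference of log2 fold changes (12-weeks minus 4-weeks) was above 0 for 25 of 27 genes, with a median of 0.62 and a range from -0.08 for Casq2 to 1.79 for Tnni1, while the median of all genes was -0.01 and 47.0% were above 0. Genes entered by a mean of at least 10 recovered reads over all libraries. So Tnni1, Myl2 (1.59) and Myl3 (1.29) were included through 12-weeks, though they lay under the reporting mean at 4-weeks. limma called 0 of the 27 and 0.0% of 14732 genes, and edgeR called 0 and 0.0%. Unadjusted p under 0.05 was reached by 4 of the 27 in limma, against 3.18% of all genes, and by 5 in edgeR, against 3.48%. Without sham replicate 3 of 4-weeks the median was 0.39 and 24 of 27 were above 0.

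Levels as CPM, the recovered reads scaled to TMM-adjusted library totals, were set side by side across time points without a test, since the time point, the age of the animals and the number of rats per pool changed together and cannot be told apart. For Myh7 the mean CPM was 2.63 ± 1.35 (SD, n = 5) in sham libraries of 4-weeks, 7.46 ± 1.03 (n = 4) in sham libraries of 12-weeks, 2.09 ± 0.84 (n = 5) in OA libraries of 4-weeks and 15.7 ± 5.83 (n = 4) in OA libraries of 12-weeks. For Tnni1 these means were 1.13 ± 0.93, 1.56 ± 0.46, 0.47 ± 0.08 and 3.27 ± 0.69. The 12-week to 4-week ratio of mean CPM was above 1 for 19 of 27 genes in sham libraries, with a median of 1.31, and for 25 of 27 in OA libraries, with a median of 2.11. Without sham replicate 3 of 4-weeks the sham ratio was above 1 for 23 of 27, with a median of 1.57. The highest OA ratios were those of Myl2 (8.03), Myh7 (7.52) and Tnni1 (6.97), and the medians over all genes were 0.99 in sham and 1.00 in OA libraries. Myl2 and Tnni1 lay under the reporting mean at 4-weeks, with OA means of 3.05 and 5.59 normalized reads, so their ratios rest on few reads.

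Most of the sarcomere genes followed each other from library to library. Of the 24 genes reported in both tables, 16 had a Pearson r of at least 0.5 with the mean log2 level of the muscle genes in both tables (10 libraries at 4-weeks and 8 at 12-weeks). These correlations are descriptions, the points share library and depth, and each gene is part of the mean it is compared with. They also hold the difference between OA and sham, which was known at 12-weeks when the genes were chosen. So a 12-week r does not show that genes followed each other within a group. The 8 that did not were Mybpc1, Des, Casq1, Tnnt3, Tpm2, Casq2, Mybpc2 and Tnnt1. At 12-weeks r was -0.70 for Mybpc1, -0.58 for Des and -0.50 for Casq1, while at 4-weeks it was 0.65, 0.78 and 0.28, and 0.33, 0.22 and 0.02 without sham replicate 3. Acta1 had an r of 0.86 and 0.95 in the 2 tables and Mb of 0.79 and 0.82.

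Among 14370 genes compared over the libraries of both groups, the one most like the muscle mean was Nrap, which helps to assemble new myofibrils. Its r was 0.96 at 4-weeks (0.89 without sham replicate 3) and 0.89 at 12-weeks. Nrap had 50.6 to 79.4 normalized reads in OA and 34.4 to 48.3 in sham libraries of 12-weeks. The other 9 of the 10 most alike were 3 rows of 7SK, 2 of RNaseP_nuc, 1 of Metazoa_SRP, the genes known by clone name AABR07058519.1 and AABR07032393.1, and Rab37, a small GTPase of secretory vesicles. Over the 10 genes r was 0.82 to 0.96 at 4-weeks and 0.82 to 0.94 at 12-weeks, and 0.41 to 0.89 at 4-weeks without sham replicate 3. So 6 of the 10 were rows of short structural RNAs. At 12-weeks 7SK summed to 6167 to 8960 normalized reads in OA and 5414 to 7554 in sham libraries. RNaseP_nuc summed to 288 to 536 against 237 to 294, and Metazoa_SRP to 1433 to 1786 against 1211 to 1599.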

How the data were processed

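RNA of CD11b/c-selected synovial cells was sequenced from ribosomal RNA-depleted stranded libraries, in 5 OA and 5 sham samples at 4-weeks and 4 and 4 at 12-weeks, grouped by the sample labels. The authors processed reads with fastp 0.20.0, aligned them to Rnor_6.0 with STAR 2.7.6a, dropped duplicates with Sambamba, assigned reads to genes with featureCounts 2.0.0 and divided them by DESeq2 1.24.0 size factors within each time point. The deposited tables hold these normalized reads (unit: signal), together with the authors' own comparison columns (log2 fold change, its standard error, a Wald statistic score, p-value and adjusted p-value), which were not used. The strand setting of the counting and the treatment of reads that fit several genes are not given in the sources used here. In every library 100% of the values were a whole number times what 1 read was worth (tolerance 0.02), so each count of reads was recovered from the deposited values. Library depth was 4662344 to 18080503 recovered reads, and intervals and floors of 3 reads cover counting error only.

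Groups were tested separately at 4-weeks and 12-weeks with limma 3.58.1 (R 4.3.3), by a moderated test of OA against sham with a mean-variance trend on log2(normalized reads + 1) of the genes with a table mean of at least 10, adjusted by Benjamini-Hochberg over all of them. Calls needed a log2 fold change of at least 0.5 and an adjusted p under 0.05. Differences between time points were fitted on TMM-scaled log2 CPM of recovered reads with a prior count of 2. This fit took genes with a mean of at least 10 recovered reads over all libraries. The paper's methods used DESeq2, which needs counts, so DESeq2 1.42.0 and edgeR 4.0.16 on the recovered reads were alternatives. The pseudocount was also set to 0.5 and 5, and the filter to a mean of at least 50 or to any read. Further alternatives were TMM scaling, a replicate block, no fold minimum and leaving out each library, and DESeq2 without sham replicate 3 was added after the data were seen. Python 3.11.15, numpy 2.4.6, pandas 2.3.3 and matplotlib 3.10.9 were used.

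The genes and lists were chosen with earlier results of these data known. Per-library values are printed for Myh7 and Tnni1, the gene with the highest mean of each fibre kind, the partner troponins, and the 2 genes with the largest rise and the 2 with the largest fall in each table. Each tool was tested on simulated data with 200 altered genes. limma recovered 99.5% of them with 14 false calls among 14861 genes at 4-weeks and 99% with 10 among 14666 at 12-weeks, and DESeq2 recovered 99.5% with 26 and 97.5% with 23. The log2 fold changes of the muscle genes were at most 1.05 in limma, and recovery of changes that small was not tested. Libraries of a group were compared for repeated deposits, with a chi-square per degree of freedom of 5.84 to 38.8 over 32 pairs, and none was merged with another. Separate libraries are pools of different rats. The correlation of same-numbered OA and sham libraries' deviations was -0.131 to 0.0803 at 4-weeks and -0.0264 to 0.298 at 12-weeks. Libraries of different numbers gave -0.376 to 0.346 and -0.219 to 0.222, so the pair of replicates 3 was the highest at 12-weeks. With so few libraries these values cannot decide whether the numbers pair the samples, and the main fit took the samples as unpaired.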

Additional observations from a re-analysis of the deposited data

Results flagged for a closer look

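Among 102 groups of libraries examined, 9 values stood far from the rest of their group, and chance flags about 1 in 20 groups. In sham libraries of 4-weeks, replicate 3 stood apart for 7 genes. It had 102 normalized reads of Mybpc2 (19.3 to 24.2 in the other sham libraries), 114 of Xirp2 (18.4 to 34.9), 220 of Ryr1 (49.7 to 89.1) and 55.7 of Actn2 (6.45 to 17.4). The same library had 195.0 normalized reads of Myh4 (35.9 to 76.6), 1481 of Tpm2 (676 to 887) and 34.8 of Tnnc1 (6.44 to 14.1). In OA libraries of 4-weeks, replicate 3 had 1010 normalized reads of Des (842 to 886 in the other OA libraries) and 29.5 of Tnni2 (18.4 to 21.0).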

How the results depend on the processing

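For the number of muscle genes called, every alternative gave 0 as limma did, except DESeq2 with 1 at 4-weeks (Mybpc1, log2 fold change -0.72) and 5 at 12-weeks, and DESeq2 without sham replicate 3 with 1 and 5. Over all genes, the calls that differed by over 1.5 times were 31 at 4-weeks and 100 at 12-weeks in DESeq2, 36 and 248 in DESeq2 without sham replicate 3, and, in limma, 1 with the replicate block, with TMM scaling and without sham replicate 3 at 4-weeks, 81 without sham replicate 3 of 12-weeks and 1 without sham replicate 4. The replicate block called 0 muscle genes in either time point and changed no call of a muscle gene. Leaving out each library gave a median log2 fold change of -0.29 to 0.04 at 4-weeks and 0.35 to 0.56 at 12-weeks. Of single genes at 4-weeks, Tnnc1 turned to 0.091 in edgeR and 0.011 in DESeq2. Leaving out each library in turn gave log2 fold changes of -0.14 to 0.29 for Myl1, -0.052 to 0.18 for Casq2, -0.34 to 0.062 for Actn3, -0.41 to 0.22 for Tnnc1, -0.36 to 0.24 for Myh4, -0.050 to 0.54 for Acta1, -0.56 to 0.023 for Myh7, -0.34 to 0.095 for Tnni2, -0.22 to 0.061 for Tpm2, -0.27 to 0.047 for Tnnt1 and -0.040 to 0.28 for Mylpf. At 12-weeks Casq2 turned to 0.0073 in edgeR and 0.0042 in DESeq2, and leaving out each library gave -0.19 to 0.095 for it and -0.048 to 0.19 for Tpm2, while the other 12-week genes kept their direction. The cause was not tested. Of the remaining values at 4-weeks, 394 kept their direction and side of the threshold, and Mybpc1 in DESeq2 passed it. All 422 values at 12-weeks moved by less than the SD between libraries. Most genes had under 100 normalized reads, so their precision rests on few reads per library.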
